A study of Homo sapiens with 9 samples.

Results

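Streptavidin ChIP-seq of cells that made the biotin ligase BirA, but no protein for it to label, measured which places in the genome came down with the beads when no tagged factor was there. Members were all peaks in the 3 deposited BirA lists, with 66002 peaks in replicate 1, 7819 in replicate 2 and 56341 in the list the authors called on both replicates joined. These make 130162 of the 316415 peaks in the 9 lists of the series. The cells were K562, a human erythroleukaemia line, and every group had been kept with hemin for 48 h (50 mM, as labelled), which starts red cell maturation in this line. The groups were the parental BirA cells (2 ChIP libraries), the bio-zfp148 and bio-zfp281 cells (2 ChIP libraries each), and 1 input library of each. The bio-zfp148 and bio-zfp281 cells made BirA too, and in addition zfp148 or zfp281 with an amino-terminal biotin acceptor motif of 23 amino acids. They were selected clones whose tagged protein was near the level of the endogenous one. All were fixed with 1% formaldehyde for 10 min, and sheared chromatin was captured on streptavidin beads. The labels do not state whether the replicates of a group were separate cultures, and differences between them may be technical. Peak lists hold no RNA or protein values, so neither the cell line nor the absence of a tagged protein could be checked against a marker.

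Streptavidin binds biotin almost irreversibly, which allows harsh washing and needs no antibody. Human cells also hold proteins that carry biotin naturally, chiefly carboxylases, most of them in mitochondria, and chromatin can stick to beads without any biotin. ChIP controls of many kinds are known to give reads at open, transcribed chromatin, at repeats that short reads map to poorly, and at stretches that a cancer line carries in extra copies. K562 is known for extra copies of the fused ends of chromosomes 9 and 22 that form the BCR-ABL1 gene. Chromosome 19 is known as the most gene-dense human chromosome. A cell line without the tag but with the ligase is the usual reference for such a pulldown.

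The 2 BirA libraries stood far apart, so each result is given for each of them. After removal of duplicates, replicate 1 held 15956688 tags and replicate 2 held 1080363 tags, which is 14.8 times as many in replicate 1. Duplicate removal kept 34.5% of the 46248613 mapped tags in replicate 1 and 10.5% of 10270043 in replicate 2. The authors kept at most 2 tags per position in replicate 1 and at most 1 in replicate 2, so the filters differed as well. Replicate 1 gave 81.8% of the mapped tags of the pooled list. Both were called against the same BirA input of 6194106 filtered tags, so their peaks share every feature of that input. The caller scaled the smaller data set up, which was the input beside replicate 1 and the pooled library (ChIP over input 2.58 and 2.85) but the ChIP library beside replicate 2 (ChIP over input 0.174). The authors' fold enrichment, p scale (10 times the -log10 of the caller's p) and false discovery rate (FDR) therefore differ in meaning between lists. Peaks are ranked by them only within a list, while some alternatives at the end apply 1 cut-off to all lists.

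BirA background peaks were short and held few tags. The median length was 515 bp in replicate 1 (quartiles 432 to 658 bp) and 487 bp in replicate 2 (390 to 568 bp), and in the pooled list the quartiles were 486 and 739 bp. The median peak held 16 tags in replicate 1, 6 in replicate 2 and 18 in the pooled list. Lengths lay close together while tags followed depth. The smallest peak that was called held 12 tags in replicate 1, 5 in replicate 2 and 13 in the pooled list, not far below these medians. Peaks with that smallest number made up 21.8% of replicate 1 (14362), 44.7% of replicate 2 (3499) and 5.83% of the pooled list (3284). By the p scale, replicate 2 peaks did not lie near the lowest value called, with a median of 266.6 against 50.03. In replicate 2, 7036 peaks (90.0%) held 10 tags or fewer. A count of 6 tags has an exact Poisson 95% interval of 2.20 to 13.1, and one of 16 tags has 9.15 to 26.0, so the height of a single typical peak was poorly known. These intervals cover counting error only.

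Per unit of length, the median BirA peak held 32.7 tags per kb in replicate 1, 12.99 in replicate 2 and 33.9 in the pooled list. Spread evenly over the authors' effective genome of 2.70e+09 bases, the same libraries would hold 5.91, 0.4001 and 6.53 tags per kb. The median peak thus stood 5.54-fold over the even level in replicate 1, 32.5-fold in replicate 2 and 5.20-fold in the pooled list. The shallow library, where no peak held fewer than 5 tags, listed peaks far above its mean, and the deep one listed peaks closer to it. Among the tagged libraries, which were as shallow as BirA replicate 2, this ratio was 42.8 and 26.0 for the bio-zfp148 libraries, and 24.3 and 42.1 for the bio-zfp281 libraries. Peaks covered 38.9 Mb (1.44% of the effective genome) in replicate 1, 3.91 Mb (0.145%) in replicate 2 and 37.1 Mb (1.37%) in the pooled list. They held 8.79%, 5.39% and 8.02% of the filtered tags of those libraries.

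**Figure D1:**
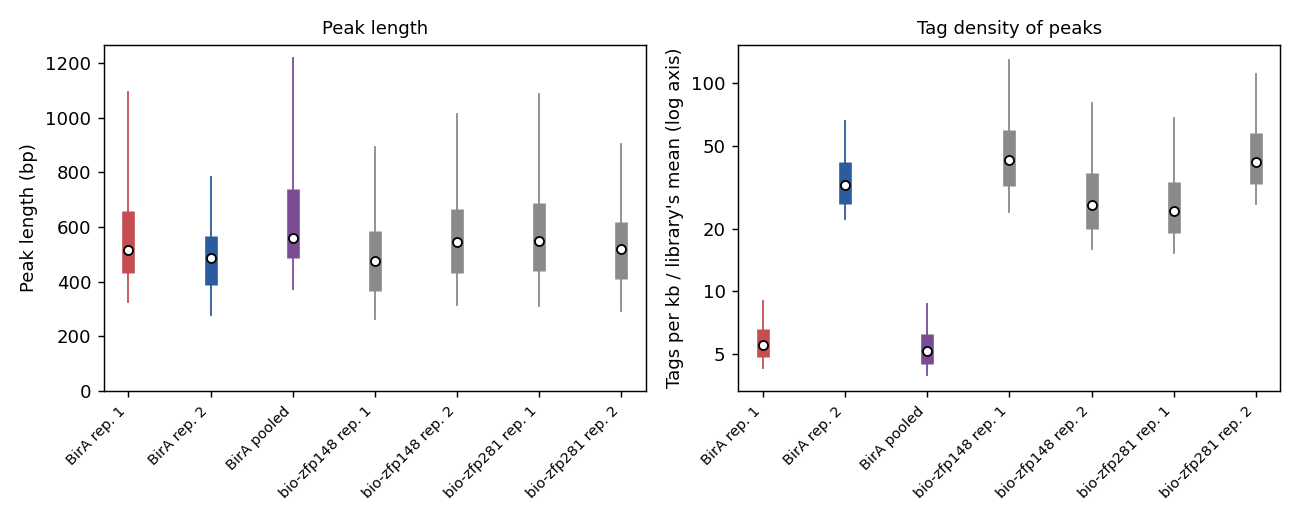
Peak length in bp (left) and tags per kb of peaks over the mean of the library on a log axis (right), for the BirA lists and then the 4 tagged libraries, with the median as a point, the quartiles as a thick bar and the 5th to 95th percentile as a thin line. Lengths lay close together, whereas the median peak stood 5.54-fold over the mean in BirA replicate 1 and 32.5-fold in BirA replicate 2.

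A small part of the background was wide and tall. Peaks over 2000 bp numbered 269 in replicate 1, 6 in replicate 2 and 387 in the pooled list, and peaks with more than 100 tags numbered 270, 9 and 459. The widest peak of each list was 8662, 5740 and 8666 bp long. The peak with most tags in replicate 1 was narrow, at chromosome 1:91852642-91853280 (hg19 throughout), with 756 tags over 639 bp, which is 1183 tags per kb. It met a peak of 106 tags in replicate 2 and a peak in all 4 tagged libraries. Next in replicate 1 came chromosome 4:49022-53458, close to the start of that chromosome, with 617 tags. It met 2 replicate 2 peaks, 1 of which held 23 tags. After it in replicate 1 came chromosome 13:81172241-81180902 with 487 tags and no replicate 2 peak. The remaining 2 of its top 5 were chromosome 22:23299108-23304471 with 469 tags and no replicate 2 peak, and chromosome 16:33962899-33964302 with 453 tags against 116 in the replicate 2 peak it met. A peak with many tags in the deep library was therefore not always a peak in the shallow one.

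The tallest peaks of replicate 2 lay at other places than those of replicate 1. The 5 with most tags lay at chromosome 1:121483968-121485578 (615 tags), chromosome 22:22899707-22902171 (395 tags), chromosome 21:9825312-9828050 (346 tags), chromosome 2:133025844-133031583 (283 tags) and chromosome 18:18515829-18520483 (234 tags). None of the 5 met a peak of replicate 1, and the first 4 met a peak in all 4 tagged libraries. Their fold enrichment over the local background was 0.73, 2.36, 3.37, 3.74 and 0.62 in the authors' list. All 5 lay below the median fold enrichment of that list, 3.85, so the places with most raw tags were not those that stood out most from the local background. In replicate 1 the 5 peaks with most tags had a fold enrichment of 5.85, 6.91, 4.92, 9.98 and 8.70. These lay on both sides of the median of that list, 8.44. Replicate 2 listed 187 peaks (2.39%) with a fold enrichment under 1, and the other 2 BirA lists held none.

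In the pooled list the tallest peak was chromosome 22:23061003-23069097, with 842 tags over 8095 bp. The next were chromosome 1:91852638-91853286 (784 tags), chromosome 4:49018-53462 (708 tags), chromosome 22:23561859-23567146 (641 tags) and chromosome 13:81172241-81180906 (526 tags). Of these, 3 are the same places that led replicate 1. The peak at 23561859 met 3 peaks of replicate 2 and none of replicate 1, although replicate 1 supplied most of the pooled tags.

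The BirA replicates differed in how densely their peaks lay on each chromosome. Pearson's r of peaks per Mb between them was 0.177 over 23 chromosomes, and Spearman's rho, a correlation of ranks, was 0.463. Chromosomes 1, 6 and 7 lay above the mean of the list in both. In replicate 1 peaks were spread more evenly than in replicate 2, and chromosomes 7, 1 and 6 were densest with 30.4, 30.0 and 29.4 peaks per Mb against 21.3 over the whole list. Leaving out Y and the mitochondrial chromosome, which had almost no peaks, X, 14 and 22 were sparsest with 8.34, 12.3 and 13.7 peaks per Mb. In replicate 2 chromosome 19 led with 9.98 peaks per Mb (exact Poisson 95% interval 9.19 to 10.8), followed by chromosome 22 with 7.80 (7.06 to 8.61) and chromosome 17 with 5.30 (4.81 to 5.82), against 2.53 over the list. With the same left out, X, 18 and 14 were sparsest there, with 0.672, 1.06 and 1.16 peaks per Mb.

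Relative to its own list, chromosome 19 was 3.95 times as dense as the mean in replicate 2 but 0.990 times in replicate 1. Chromosome 22 was 3.09 times the mean in replicate 2 and 0.641 times in replicate 1. Among the 5000 strongest peaks of each list by the p scale, chromosome 22 held 2.66% in replicate 2 and 1.96% in replicate 1, against 5.10 and 1.06% of the whole lists, so most of that contrast was lost. Chromosome 19 held 7.8% in replicate 2 and 2.92% in replicate 1 by the same choice. Chromosome X was the sparsest of the 23 in each, at 0.391 times the mean in replicate 1 and 0.266 times in replicate 2. Between the densest and the sparsest of these 23 chromosomes, Y left out, density differed 3.64-fold in replicate 1, 14.9-fold in replicate 2 and 4.14-fold in the pooled list. The pooled list followed replicate 1, with chromosomes 1, 7 and 6 densest (26.7, 25.9 and 25.3 peaks per Mb) and, Y and the mitochondrial chromosome aside, X, 14 and 13 sparsest (6.44, 10.1 and 11.5). Chromosome 9 held 14.1, 2.27 and 12.3 peaks per Mb in replicate 1, replicate 2 and the pooled list, below the mean of each list. Chromosome Y had 5, 9 and 6 peaks. The mitochondrial chromosome had none in any BirA list.

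**Figure D2:**
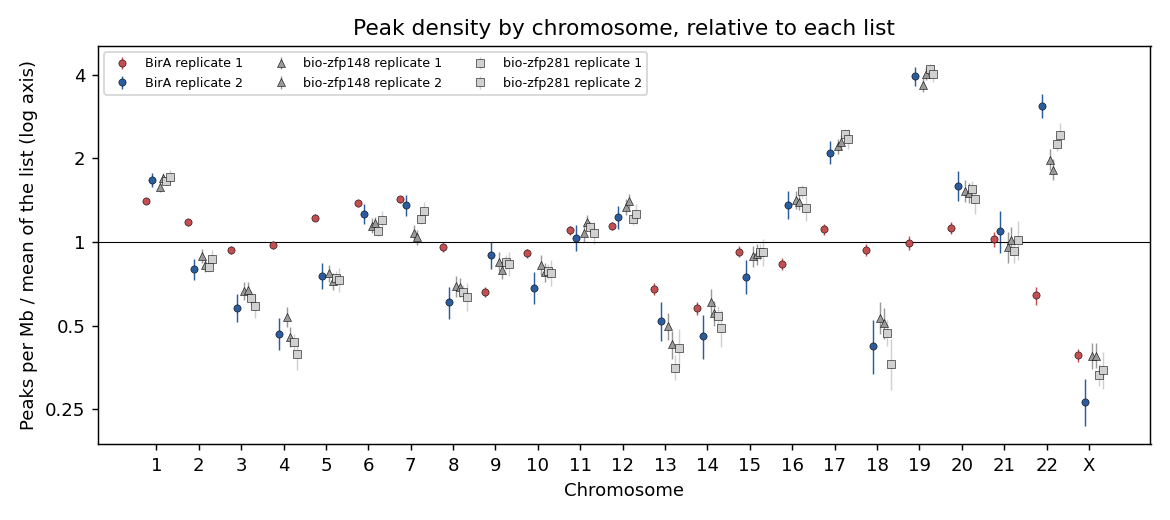
Peaks per Mb on each chromosome relative to the mean of the list, for BirA replicate 1, BirA replicate 2 and the 4 tagged libraries, on a log axis with exact Poisson 95% intervals and without Y. Chromosome 19 stood at 3.95 times the mean in BirA replicate 2 and at 0.990 times in BirA replicate 1, and X was the sparsest of those plotted in both.

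The chromosome pattern of BirA replicate 2 resembled that of the tagged cells. Chromosome 19 held 7.55% of its peaks and 1.89% of those of replicate 1, against 7.04% and 7.71% for the bio-zfp148 libraries, and 8.02% and 7.72% for the bio-zfp281 libraries. As a description over 23 chromosomes, Pearson's r of peaks per Mb between BirA replicate 2 and the tagged libraries was 0.963 and 0.943 for bio-zfp148 and 0.968 and 0.982 for bio-zfp281. For BirA replicate 1 the same values were 0.227, 0.245, 0.208 and 0.224. Over 3109 windows of 1 Mb, r was 0.857, 0.836, 0.874 and 0.884 for replicate 2, and 0.506, 0.516, 0.488 and 0.460 for replicate 1. By Spearman's rho the contrast was smaller. Over chromosomes rho was 0.966 to 0.986 for replicate 2 and 0.431 to 0.451 for replicate 1. Over windows it was 0.786 to 0.815 for replicate 2 and 0.620 to 0.679 for replicate 1. Between the 2 BirA replicates, r was 0.428 and rho 0.611 over windows. Chromosomes and windows share gene density, mappability and copy number in all libraries, and neighbouring windows are not independent. Depth, the duplicate filter and the direction of input scaling also separate replicate 1 from all 5 other libraries, and their part in the pattern was not tested.

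At 1-Mb scale, replicate 1 and the pooled list covered most of the genome, and replicate 2 was patchy. The median window held 20 peaks in replicate 1, 1 in replicate 2 and 16 in the pooled list. Windows without a peak made up 8.94% (278 of 3109), 41.3% (1284) and 9.33% (290). The densest 1% of windows, 31 in all and ranked within each list, took 2.92% of the peaks of replicate 1, 12.9% of replicate 2 and 3.27% of the pooled list. Among the 5000 strongest peaks of each list by the p scale the shares were 7.56, 9.28 and 7.72%, so at equal list length the gap was much smaller. Windows with more than 20 peaks numbered 1538 in replicate 1 and 32 in replicate 2. From peak to nearest peak the median distance was 10916 bp in replicate 1, 37807 bp in replicate 2 and 11893 bp in the pooled list. Even so, 25.7% of replicate 2 peaks had a neighbour within 10 kb, against 47.4% in replicate 1.

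The crowding of replicate 2 was strongest on chromosomes 9 and 22. Its densest window, from 23 Mb on chromosome 22, held 101 peaks, and 71 in replicate 1 and 64 in the pooled list. The windows from 22, 19, 20 and 21 Mb on the same chromosome held 66, 61, 52 and 48 peaks in replicate 2, and 48, 45, 31 and 17 in replicate 1. The window from 133 Mb on chromosome 9 held 60 in replicate 2 and 20 in replicate 1. These 6 windows were the densest of replicate 2 and the only 6 with more than 40 peaks. They were crowded in every tagged library as well, with 73 and 86 peaks for bio-zfp148, and 145 and 72 for bio-zfp281, in the window from 23 Mb on chromosome 22. The other 4 of the 10 densest windows of replicate 2 began at 26 Mb (34 peaks) and 27 Mb (28 peaks) on chromosome 6, at 49 Mb on chromosome 19 (33 peaks) and at 100 Mb on chromosome 7 (30 peaks).

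Apart from the window from 23 Mb on chromosome 22, tied for second place with 71 peaks, the densest windows of replicate 1 lay elsewhere. The window from 106 Mb on chromosome 7 held 72 peaks in replicate 1 and 7 in replicate 2, and the one from 33 Mb on chromosome 6 held 71 and 23. The window from 110 Mb on chromosome 1 held 69 in replicate 1 and 10 in replicate 2, and the one from 14 Mb on chromosome 1 held 64 and 1. In the pooled list the windows from 156 and 204 Mb on chromosome 1 led with 71 peaks each. Of the 10 densest windows, replicates 1 and 2 shared 1, the window from 23 Mb on chromosome 22. Replicate 1 and the pooled list shared 6, and replicate 2 and the pooled list shared 2.

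**Figure D3:**
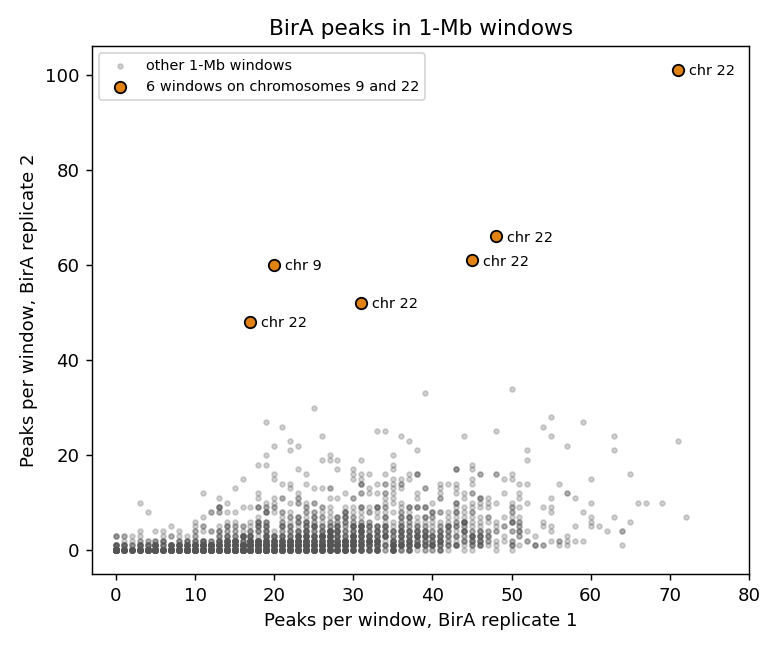
Peaks per 1-Mb window in BirA replicate 1 (horizontal) and BirA replicate 2 (vertical), with the windows on chromosomes 9 and 22 marked. The 6 marked windows hold 48 to 101 peaks in replicate 2, while the median over all windows is 1 there and 20 in replicate 1.

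In the 6 crowded windows of chromosomes 9 and 22, peaks were wide and rich in tags in the deep library, and their fold enrichment was lower than elsewhere in both. They held 232 peaks of replicate 1 (0.352%), 388 of replicate 2 (4.96%) and 222 of the pooled list. In replicate 1 the median peak inside them was 1222 bp long with 69 tags, against 515 bp and 16 tags outside. Peaks over 2000 bp made up 23.7% (55) of replicate 1 peaks inside and 0.325% (214) outside. The same 6 windows thus held 20.4% of all such wide peaks of replicate 1. In the pooled list 27.5% of peaks inside and 0.581% outside were over 2000 bp.

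Fold enrichment went the other way. Its median in replicate 2 was 1.50 inside the 6 windows and 4.03 outside, and in replicate 1 it was 6.72 inside and 8.44 outside. The p scale, which grows with tags, had a median of 83.2 inside and 65.1 outside in replicate 1, but 140.2 inside and 273 outside in replicate 2. Replicate 2 peaks inside were nearly as long (549 and 484 bp) and as rich in tags (7 and 6) as those outside. Of the 187 replicate 2 peaks with a fold enrichment under 1, 82 lay inside (43.9%), which is 21.1% of the peaks inside and 1.41% of those outside. In the tagged libraries, median fold enrichment inside and outside was 1.2 and 5.2 in bio-zfp148 replicate 1, 2.09 and 6.51 in bio-zfp148 replicate 2, 1.16 and 3.81 in bio-zfp281 replicate 1, and 0.70 and 3.22 in bio-zfp281 replicate 2. In all 6 ChIP libraries the median fold enrichment was thus lower inside these windows than outside. Copy number was not measured here, and its part in the crowding was not tested.

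Replicate agreement was low and lopsided. Of the 7819 peaks of replicate 2, 1887 overlapped a peak of replicate 1 by at least 1 bp, which is 24.1% (exact 95% binomial interval 23.2 to 25.1%). At an FDR of at most 5%, which 94.4% of replicate 2 peaks passed (7384) and none of replicate 1 or the pooled list did, 1840 replicate 2 peaks or 24.9% met replicate 1. Of the 66002 peaks of replicate 1, 1843 overlapped one of replicate 2, which is 2.79% (2.67 to 2.92%). Of the 56341 pooled peaks, 1797 met a peak of both replicates, which is 3.19%, while 44103 (78.3%) met one of replicate 1 only, 1413 (2.51%) one of replicate 2 only and 9028 (16.02%) neither. Those 3 shares are also the background share for every count of reproduced peaks that follows. In the tagged groups the same overlap, replicate 1 first, was 52.9% and 46.5% for the bio-zfp148 libraries, and 24.99% and 73.0% for the bio-zfp281 libraries. Lists of such unequal length cannot overlap by more than the shorter one allows, and both BirA replicates share 1 input.

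In the deep library, agreement climbed with tags. Of the 14362 replicate 1 peaks at the smallest count of 12 tags, 16 met replicate 2, which is 0.111%. The share was 0.666% at 13 to 20 tags, 5.29% at 21 to 50 tags, 21.2% at 51 to 100 tags and 52.6% (142 of 270) above 100 tags. Length climbed along with it, with a median of 407 bp at 12 tags and 2296 bp above 100 tags, and a longer peak meets others more easily. In replicate 2 the share was 21.1% at 5 tags, 24.6% at 6 to 7 and 31.4% at 8 to 10. It was 28.2% at 11 to 20 and 17.5% (29 of 166) above 20, in bins chosen after seeing the data. In 5 bins of near equal size by tags the share did not fall at the top. It was 20.8, 22.1, 21.9, 27.5 and 28.5% there, low to high. The exact 95% intervals were 19.8 to 22.5% at 5 tags, 28.7 to 34.2% at 8 to 10 tags and 12.02 to 24.1% above 20 tags. They cover counting error only, and peaks of 1 library are not replicates. Replicate 2 peaks with a fold enrichment under 1 met replicate 1 in 14 of 187 cases, or 7.49%. Split into 5 bins of near equal size by fold enrichment, low to high, the share in replicate 2 was 14.8, 21.4, 27.6, 30.8 and 26.2%.

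**Figure D4:**
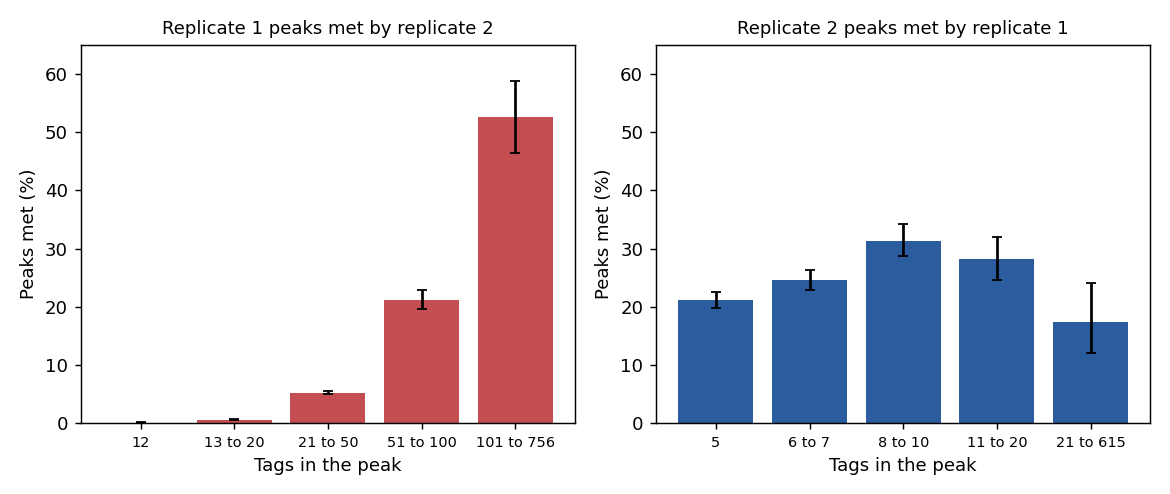
Percent of peaks that met a peak of the other BirA replicate, by tags in the peak, with exact 95% binomial intervals. The share in replicate 1 went up to 52.6% above 100 tags, while that in replicate 2 was highest at 8 to 10 tags (31.4%) and lowest above 20 tags (17.5%).

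Among 1904 overlapping pairs, the summits lay a median of 112 bp apart (quartiles 43 to 306 bp), and 46.4% were within 100 bp. Scaled to 1000000 filtered tags, the median was 2.89 tags per kb in the replicate 1 peak and 11.96 in the replicate 2 peak. The ratio of replicate 2 to replicate 1 had a median of 4.199 (quartiles 3.29 to 5.53). The lowest peak of the whole replicate 2 list held 6.02 tags per kb on that scale. The part of the smallest number of tags called in this ratio was not tested. Replicate 1 peaks that met replicate 2 had a median length of 861 bp and 41 tags, against 511 bp and 16 tags for those that did not. Of the reproduced replicate 1 peaks, 7.11% lay on chromosome 19, against 1.74% of the rest. A reproduced peak must overlap a replicate 2 peak, and 7.55% of the replicate 2 list lay on chromosome 19, so a higher share was built in. In replicate 2 the reproduced and the other peaks were alike in length (505 and 482 bp), tags per kb (12.95 and 12.99) and share on chromosome 19 (6.995 and 7.72%).

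By chromosome, the share of replicate 1 peaks met by replicate 2 ran between 1.16% on chromosome 18 and 12.1% on chromosome 22, with 10.5% on chromosome 19. It depends on how many replicate 2 peaks the chromosome held. The share of replicate 2 peaks met by replicate 1 ran between 17.0% on chromosome 8 and 32.2% on chromosome 6, Y left out for its 9 peaks. Inside the 6 crowded windows, 35.3% of replicate 1 peaks met replicate 2, against 2.68% outside. These windows were picked for their many replicate 2 peaks, and replicate 1 peaks in them were long, so a higher share there was built in. For replicate 2 peaks the shares were 26.0% inside and 24.0% outside. Calling on joined replicates kept nearly all reproduced peaks, with 96.7% of those of replicate 1 and 96.1% of those of replicate 2 met by a pooled peak. Of the peaks seen in a single replicate, 69.0% of those of replicate 1 and 24.8% of those of replicate 2 were met.

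The reproduced background places with the highest pooled fold enrichment were named by a fixed rule. The first was chromosome 13:113865705-113866570, with a pooled fold enrichment of 50.7 and 135 tags. The authors' FDR was 100% for this and the other 9 places of the rule, and no pooled peak had an FDR under 38.6%. The first place held 122 tags in replicate 1 and 11 in replicate 2, and met a peak in all 4 tagged libraries. Next came chromosome 5:156938463-156939314, with a fold enrichment of 50.4, 63 tags in replicate 1 and 12 in replicate 2, which met 3 tagged libraries. Chromosome 11:73046121-73047177 followed with a fold enrichment of 47.6, 66 tags in replicate 1 and 8 in replicate 2, and met 2. Over the 10 places of this rule, pooled fold enrichment lay between 31.6 and 50.7, with 29 to 122 tags in replicate 1 and 5 to 12 in replicate 2. All 10 rested on few tags in the shallow library.

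The other 7 of those 10 lay at chromosome 6:142467785-142468605, chromosome 22:23657822-23658208, chromosome 2:190525392-190526432, chromosome 17:65381142-65381884, chromosome 1:198668528-198669248, chromosome 1:27721728-27722379 and chromosome 17:56381424-56382241. The last of them held the highest fold enrichment of the replicate 2 list, 128 on 11 tags. Of the 10, 1 lay in the 6 crowded windows, the one on chromosome 22. Those windows held 0.394% of all pooled peaks, but the 10 were taken only among pooled peaks met by both replicates. Of these 1797 peaks, 7.12% lay on chromosomes 9 and 22. Of the 1843 replicate 1 peaks that met replicate 2, 82 lay in the windows. Of the 100 pooled peaks with the highest fold enrichment, 30 met both replicates, and of the 100 with most tags, 65 did. Of the 100 peaks with most tags in each replicate, 66 of replicate 1 met replicate 2 and 12 of replicate 2 met replicate 1. Gene names are not given for these places, since the gene table at hand is of another genome build.

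Many background places were peaks in the tagged cells as well. They made up a larger share of the short replicate 2 list than of the long replicate 1 list. Of replicate 2 peaks, 4922 (62.9%) met a peak of at least 1 of the 4 tagged libraries and 1702 (21.8%) met all 4. Of replicate 1 peaks, 7402 (11.2%) met at least 1 and 933 (1.41%) met all 4. Of pooled peaks the counts were 8675 (15.4%) and 1326 (2.35%). By library, 35.7 and 40.6% of replicate 2 peaks met bio-zfp148 replicates 1 and 2, and 53.9 and 31.5% met bio-zfp281 replicates 1 and 2. For replicate 1 peaks those shares were 3.79, 5.15, 8.65 and 3.12%. The bio-zfp148 and bio-zfp281 lists were called against inputs of their own.

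**Figure D5:**
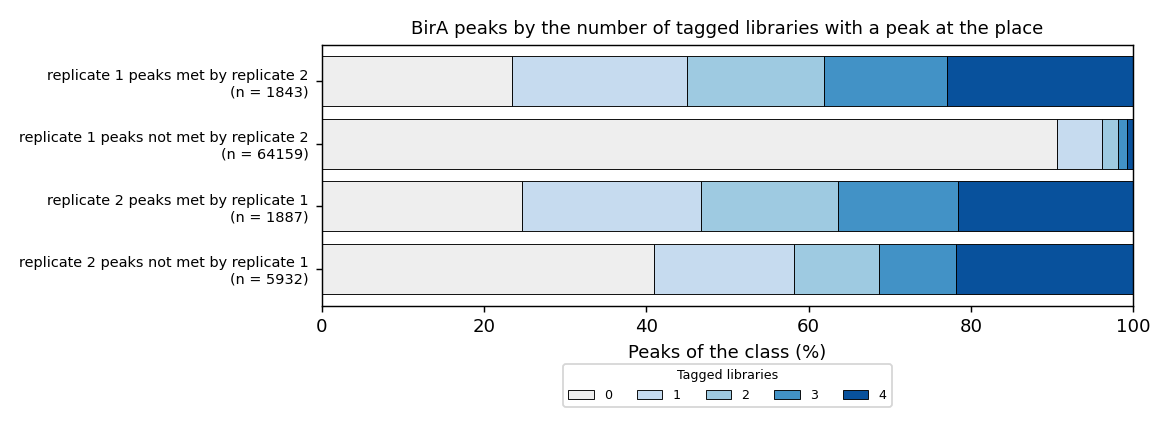
Percent of peaks by the number of tagged libraries (0 to 4) whose peaks they met, for BirA peaks split by whether the other BirA replicate met them. Reproduced peaks of both replicates met at least 1 tagged library in 75 to 77% of cases. Peaks without support did so in 9.34% of cases in replicate 1 and 59.0% in replicate 2.

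Background that both BirA replicates gave was mostly found with the tags too. Of reproduced replicate 1 peaks, 76.6% (1411 of 1843) met at least 1 tagged library, against 9.34% (5991 of 64159) of the others. Of reproduced replicate 2 peaks, 75.3% (1421 of 1887) did, against 59.0% (3501 of 5932) of the others. Pooled peaks split alike, with 77.6% of those met by both replicates, 66.0% of those met by replicate 2 only, 12% of those met by replicate 1 only and 11.7% of those met by neither. For replicate 1 a higher share was built in. Its reproduced peaks must overlap a replicate 2 peak, and 62.9% of all replicate 2 peaks met a tagged library. They were also longer, with a median of 861 bp against 511 bp. Conversely, 0.737% of replicate 1 peaks that met no tagged library met replicate 2, against 45.3% of those that met all 4. These 2 shares carry the same built-in overlap, and the median length of those peaks was 500 and 917 bp. In replicate 2 the share met by replicate 1 was 16.1% with no tagged library, 33.8% with 2 and 24.0% with all 4. A peak in all 4 tagged libraries was met by 21.6% of reproduced and 21.8% of other peaks of replicate 2.

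Set against the 4 tagged libraries as whole libraries, BirA lay below all 4 in the share of tags that peaks captured, a difference that did not pass the test. Peaks held 8.79 and 5.39% of filtered tags in BirA replicates 1 and 2, against 19.1 and 15.3% for the bio-zfp148 libraries, and 21.5 and 10.8% for the bio-zfp281 libraries. The groups did not overlap, with 7.09 ± 2.40% in BirA (SD, n = 2) and 16.7 ± 4.67% in tagged cells (SD, n = 4). The difference of -9.61 percentage points had p = 0.1333 in a two-sided exact permutation test over libraries, which is the smallest p that 2 against 4 libraries allow. Over the 8 measures tested in this way its adjusted p was 0.6667 (Benjamini-Hochberg), so it did not pass. The share was lower in BirA in 2 of 2 libraries, although BirA replicate 1 was the deepest of all.

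None of the other 7 measures passed either, and none could have, since the exact permutation test allowed no p below 0.1333. In all 7 the range of the 2 BirA libraries overlapped that of the 4 tagged ones. Median length was 515 and 487 bp in BirA against 475 and 545 bp for the bio-zfp148 libraries, and 549 and 519 bp for the bio-zfp281 libraries (exact permutation p = 0.5333). Median tags were 16 and 6 in BirA against 5, 7, 7 and 7 in the tagged libraries, with the same p. Tags per kb were 32.7 and 12.99 in BirA against 12.9, 14.4, 14.2 and 14.1 (exact permutation p = 0.5333). The share of peaks on chromosomes 9 and 22 was 4.07 and 9.20% in BirA against 7.15, 6.63, 7.58 and 7.82% (exact permutation p = 0.6667). The densest 1% of windows took 2.92 and 12.9% in BirA against 8.81, 9.20, 9.88 and 11.3%, with that same p. On the last 2, BirA replicate 2 lay above and replicate 1 below all 4 tagged libraries. Chromosome 19 gave an exact permutation p of 0.2667 and chromosome X, with 1.96 and 1.33% in BirA against 1.95, 1.95, 1.66 and 1.73%, gave 0.6667. All adjusted p-values were 0.6667 by the exact permutation test. With 2 BirA libraries so unlike each other, these p-values do not show that BirA and tagged cells were alike.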

How the data were processed

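Hemin-treated K562 ChIP and input libraries had been aligned to hg19 by Bowtie 1.0.0, with MACS 1.4 as peak caller, per the submitters' processing notes (1.4.0rc2 per the file headers). The authors called each library, and both replicates of a group joined, against the input of the group, which gave 9 lists. For every peak the deposited lists hold an unnormalised tag count and, from the authors' caller, 10 times the −log10 p (called the p scale), a fold enrichment (a ratio to the scaled local input) and an FDR in percent. Fold and p scale were ranked only among peaks of 1 list. The alternatives with a minimum p scale or fold applied 1 cut-off to lists in which these scales differ in meaning. Inputs entered only through these calls.

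Lengths, tags per kb, peaks per Mb (a chromosome taken up to the highest peak end in any list), 1-Mb windows and overlaps of at least 1 bp were computed, with exact Clopper-Pearson or Poisson 95% intervals, which cover counting error only. Libraries were compared by exact permutation with Benjamini-Hochberg adjustment. Named were the 10 pooled peaks of highest fold met by both replicates, the 5 peaks with most tags and the 10 densest windows of each list (not all printed), and the 3 densest and sparsest chromosomes with 9, 22, M and Y. Members and lists were chosen with earlier results of these data known. The split by the 6 crowded windows, by tags and by tagged libraries was chosen after seeing the data. Overlap counting and the permutation test were checked on simulated lists. Alternatives were another overlap, a minimum p scale of 100, a minimum fold of 10, the strongest 5000 peaks, other windows, chromosomes or libraries left out, and a replicate block. Columns of samples of another series numbered 0. No sequence is printed and no gene assigned, since no hg19 genome or annotation was used here. The software was matplotlib 3.10.9, scipy 1.17.1, pandas 2.3.3 and numpy 2.4.6 under Python 3.11.15.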

Additional observations from a re-analysis of the deposited data

How the results depend on the processing

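Replicate agreement depended on what counted as a peak. The share of BirA replicate 2 peaks met by replicate 1 was 22.1% with at least 50% of the shorter peak shared, 16.1% with summits within 200 bp, 11.2% at a p scale of at least 100, 12.4% at a fold enrichment of at least 10 and 9.16% in the strongest 5000 peaks of each list. The share of replicate 1 peaks met by replicate 2 was 2.55, 1.90, 8.24, 0.517 and 8.98% under the same 5 settings. The p scale minimum kept 9857 peaks of replicate 1 and 7451 of replicate 2, and the fold minimum kept 17979 and 742. Both minima thus cut the lists unequally. The share of pooled peaks met by both was 2.21% by summits, 7.92% at that p scale, 0.835% at that fold and 8.92% in the strongest 5000, and 5.70 to 81.5% with either replicate left out, when only the other had to be met. Median length was 762 bp (p scale) and 843 bp (strongest 5000) in replicate 1, 421 bp (fold) and 461.5 bp (strongest 5000) in replicate 2, and 814, 604 and 895 bp (p scale, fold, strongest 5000) in the pooled list. Median tags were 33 and 40 in replicate 1 and 37 and 45 in the pooled list (p scale, strongest 5000), and tags per kb 48.4 and 50.9 in the strongest 5000. These settings keep the stronger peaks by construction. Chromosome 22 held 1.62% of replicate 2 peaks at the fold minimum, and the densest 1% of 100-kb windows 20.6% of them.

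Of 87 alternatives for the 8 differences between BirA and tagged libraries, 79 kept the direction and 8 turned it. The difference in median length became 100.8 bp (p scale) and 23.1 bp (strongest 5000), and that in median tags became -0.75 (fold). With each library left out in turn, it was -36.7 to -7.00 bp for length, -0.50 to 9.50 for tags, -0.90 to 18.8 for tags per kb, -11.6 to -7.91 percentage points for tags in peaks, -6.86 to 3.16 for the densest windows, -5.73 to -0.079 for chromosome 19, -0.493 to 0.135 for X and -3.23 to 1.90 for chromosomes 9 and 22. Leaving out BirA replicate 1 turned the difference in tags (-0.50), tags per kb (-0.90), densest windows (3.16) and chromosomes 9 and 22 (1.90), and leaving out BirA replicate 2 turned that on X (0.135). The cause was not tested. Besides tags in peaks, the exact permutation p reached 0.1333, the smallest possible, for X at the p scale and fold minima and in the strongest 5000. It also did so for the densest windows in the strongest 5000, and for chromosome 19 and chromosomes 9 and 22 at the fold minimum.

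With replicate numbers as a block, exact permutation p-values were 0.2222 for tags in peaks (difference -9.61) and chromosome 19 (-2.91), the smallest that block allows, and 0.6667 for the other 6 differences (-21.0 bp in length, 4.50 tags, 8.96 tags per kb, -0.662 on chromosomes 9 and 22, -0.179 on X and -1.85 for the densest windows). Deviations of same-numbered libraries over 2862 windows correlated at 0.103 (BirA and bio-zfp148), -0.097 (BirA and bio-zfp281) and -0.142 (bio-zfp148 and bio-zfp281). These values cannot settle whether same-numbered libraries were handled together, since depth differed between replicates, and the BirA duplicate filters did too. Peaks at gene starts, a planned count, were not run for lack of an hg19 annotation. Depth limits these lists: no place with fewer than 5 tags was called in BirA replicate 2, so a missing peak is not shown to be absent signal.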
